A study of Homo sapiens with 6 samples.

Results

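AGS is a human gastric adenocarcinoma cell line that grows as an adherent epithelial sheet. The transcriptome described here is that of AGS cells given a control siRNA, si-Control, which was measured on 3 microarrays out of the 6 in the series; the other group, in which the glycosyltransferase C1GALT1 was silenced with si-C1GALT1-3, was not analysed here. The members were the 3 si-Control arrays and every gene spot on them. Cells were cultured in RPMI1640 with 10% serum, and RNA was taken 48 h after transfection, so that each value belongs to transfected cells, and untransfected AGS cells were not analysed here. The line is a model of tumour epithelium alone, without stroma, vessels or immune cells. Nothing in the labels said whether the 3 RNA samples came from separate cultures, and the spread between arrays may therefore be technical. No comparison between groups was made and no test was run.

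Gastric cancers of the intestinal kind commonly arise in mucosa that has taken on intestinal features, a change driven by the caudal-type homeobox factors, and the mix of gastric and intestinal genes in a line is a record of that state. Growth of gastric cancer cells can involve receptor tyrosine kinases and the Wnt pathway, and growth was not measured here. These kinases bind ligands outside the cell and signal through RAS and PI3K. The receptors are glycoproteins: mucin-type O-glycans are started by GalNAc transferases, extended by the core 1 synthase C1GALT1 and its chaperone C1GALT1C1, and capped with sialic acid or fucose.

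Of 62976 spots on each array, 60901 were gene spots for 58201 probes, and 31104 of these probes carried a RefSeq transcript that led to 22438 gene symbols. A gene was called above background when at least 1 of its probes was marked well above background by the scanner software on every array with a usable spot, and not above background when no probe was so marked on any array. By this rule 17255 genes, 76.9% of those tested, were above background, 1748 were so on some arrays, and 3435, or 15.3%, were not above background on any. Between 67.5% and 71.8% of usable gene spots per array were marked, and no gene spot was saturated. Normalized log2 signals of the probes correlated between arrays with Pearson's r of 0.973 to 0.976, a description over probes that share libraries.

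The call was permissive. Olfactory receptors, which sense odorants in the nose, were above background for 144 of 356 genes, and keratin-associated proteins, which build hair, for 58 of 88. The signal of KRTAP1-4 was 17.27, 17.32 and 17.30 on the 3 arrays. Signals are therefore also set against the 95th percentile of the olfactory receptor probes, a mean log2 signal of 9.92, called the olfactory receptor level below. Above background and over that level were 9937 genes, 44.3% of those tested, but so were 22 of the 88 keratin-associated protein genes. Being over the level is no proof of a transcript, and what gives signal in these families was not tested. Probes differ in brightness for the same amount of RNA, so signals are compared with this floor and between arrays, and not between genes. Over or under the level refers to the mean over arrays.

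**Figure D1:**
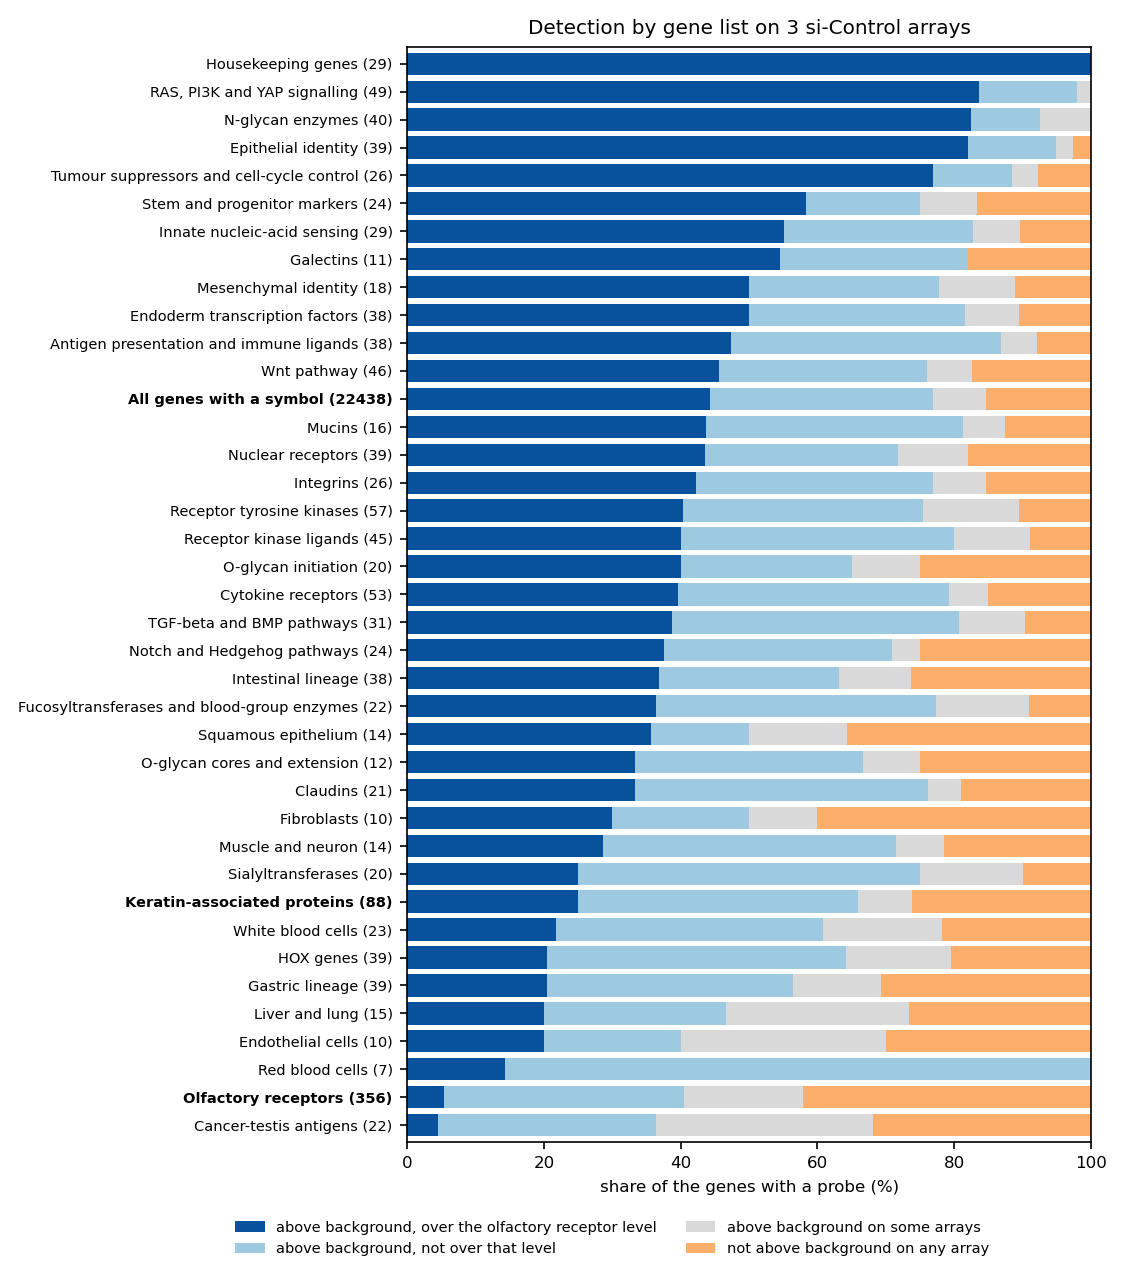
Stacked bars give, for each gene list, the share (%) of its genes with a probe that fell into each class on the 3 si-Control arrays; the number of genes is in parentheses, and bold names mark all genes and both reference families. All 29 housekeeping genes were over the olfactory receptor level, against 44.3% of all genes and 5.34% of the olfactory receptors. The share of the olfactory receptors follows from the definition of the level.

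On the array of replicate 2 a central rectangular region was dim: 36.5% of its 9712 gene spots were well above background against 72.9% far from it, and the median deviation of its spots from the other arrays was -1.68 log2 units. Those spots were left out, and 3554 genes are shown with arrays 1 and 3 only. A mean marked n = 2 is over these arrays, and a range of means over several genes may include such genes. Where a gene had several probes, the brightest probe above background is shown, and the number of probes above background is given for the genes named below where they disagreed. Unless stated otherwise, counts of probes refer to the background call only. A gene shown over the level may have another probe under it. Of 6754 genes with several probes, 65.8% had all probes called alike and 19.1% had a probe above background beside another that was not.

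The sequence at gene starts differed between the classes. Among protein-coding genes with an entry in the RefSeq promoter table, which covers 300 bases around the start, the median observed over expected frequency of the CpG dinucleotide was 0.839 in 7435 genes over the olfactory receptor level, 0.728 in 4365 that were above background without passing it, and 0.472 in 1910 that were not above background; the median GC content was 65.0%, 62.3% and 56.0%. The hexamer GGGCGG, bound by SP1-type factors, was present on either strand in 69.0%, 56.8% and 41.0% of these promoters, against 60.0% of the 14630 protein-coding genes on the array and 44.6% of all 27305 promoters in the table. TATAAA was present in 6.43%, 10.1% and 15.97%, against 9.39% of the protein-coding genes on the array and 12.0% of the table. For CCAAT the shares were 37.5%, 34.6% and 36.0%, against 36.4% and 35.7%. The motifs were searched as written on both strands, and any of them may overlap another.

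The first listed start of a gene did not have to follow these medians, as 5 genes described below show. Their promoters (build GRCh38.p14), each at the first start listed for the gene, are printed 5′ to 3′ on the gene's strand, with CpG in capitals. A gene may have other starts, and which start these cells use was not tested. KRT8 lies at chr12:52926420-52926719 on the minus strand, ERBB2 at chr17:39687844-39688143, C1GALT1 at chr7:7182294-7182593, LIPF at chr10:88664192-88664491 and FUT9 at chr6:96015724-96016023, all but KRT8 on the plus strand.
KRT8: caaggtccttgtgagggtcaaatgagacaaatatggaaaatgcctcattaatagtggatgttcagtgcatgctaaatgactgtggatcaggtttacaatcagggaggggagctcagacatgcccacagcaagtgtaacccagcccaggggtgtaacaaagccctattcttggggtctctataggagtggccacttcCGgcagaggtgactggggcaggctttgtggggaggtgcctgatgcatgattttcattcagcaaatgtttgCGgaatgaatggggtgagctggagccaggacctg
ERBB2: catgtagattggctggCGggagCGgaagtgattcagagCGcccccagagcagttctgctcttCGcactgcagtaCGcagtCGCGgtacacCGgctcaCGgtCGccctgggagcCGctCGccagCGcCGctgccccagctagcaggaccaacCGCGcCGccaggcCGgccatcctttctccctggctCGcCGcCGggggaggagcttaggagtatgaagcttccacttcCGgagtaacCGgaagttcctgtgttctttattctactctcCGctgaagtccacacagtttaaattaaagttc
C1GALT1: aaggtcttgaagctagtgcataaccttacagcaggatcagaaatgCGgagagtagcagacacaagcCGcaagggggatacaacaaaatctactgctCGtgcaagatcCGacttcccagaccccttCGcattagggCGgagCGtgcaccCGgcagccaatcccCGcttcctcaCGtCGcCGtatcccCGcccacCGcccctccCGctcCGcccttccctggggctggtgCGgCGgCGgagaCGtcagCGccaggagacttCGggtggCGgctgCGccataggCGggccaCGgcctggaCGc
LIPF: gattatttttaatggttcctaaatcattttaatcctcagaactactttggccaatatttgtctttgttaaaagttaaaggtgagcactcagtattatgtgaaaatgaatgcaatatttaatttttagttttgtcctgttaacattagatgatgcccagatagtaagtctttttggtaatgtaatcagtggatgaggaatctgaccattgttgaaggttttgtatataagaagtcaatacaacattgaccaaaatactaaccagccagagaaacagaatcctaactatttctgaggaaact
FUT9: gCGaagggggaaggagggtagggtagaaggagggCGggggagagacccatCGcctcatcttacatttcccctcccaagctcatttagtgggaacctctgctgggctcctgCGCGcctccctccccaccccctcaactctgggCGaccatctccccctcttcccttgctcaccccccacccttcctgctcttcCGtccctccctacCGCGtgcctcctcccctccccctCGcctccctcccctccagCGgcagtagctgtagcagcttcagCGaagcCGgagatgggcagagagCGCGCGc
The starts of ERBB2 and C1GALT1, genes over the level, held 24 and 27 CpG dinucleotides, and that of C1GALT1 held 4 copies of GGGCGG. The gastric lipase gene LIPF, which was not above background, held 0. KRT8, at 17.31, 17.37 and 18.02 on the arrays, held 2 CpG dinucleotides at its first listed start, against a median of 26 in protein-coding genes over the level. FUT9, at 3.32, 3.22 and 3.31 and not above background, held 16 against a median of 9 in its class.

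The cells carried a simple-epithelial programme. Of 39 epithelial genes, 37 were above background and 32 (82.1%) over the olfactory receptor level, against 44.3% of all genes. EPCAM, the epithelial cell adhesion molecule, gave log2 signals of 15.51, 15.75 and 15.44 on the arrays of replicates 1, 2 and 3. KRT18, the partner of KRT8 in the filaments of simple epithelia, gave 17.10, 17.07 and 17.66. The ductal and glandular keratins KRT19 and KRT7 had means of 16.14 ± 0.56 (SD, n = 3) and 16.67 ± 0.23 (SD, n = 3). All 4 keratins stood well over the level on every array. KRT20, the keratin of mature intestinal and gastric surface cells, was the only member of the list not above background, at 3.19, 3.22 and 3.96. The splicing regulator ESRP1, at 13.30 ± 0.18 (SD, n = 3), and the transcription factor GRHL2, at 12.06 ± 0.23 (SD, n = 2), both of which maintain epithelial identity, were over the level. CDH1, which encodes E-cadherin, was not: its 1 probe gave 7.37, 7.66 and 7.65, above background on each array and within the range of the olfactory receptors. The placental cadherin CDH3 was above background on some arrays.

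Claudins form the strands of tight junctions, and the list was split. CLDN4 gave 13.81, 14.06 and 13.33, and CLDN7, another claudin common in tumours, gave 14.14, 14.56 and 14.25. CLDN1 was over the level too, at 12.12 and 11.70 on arrays 1 and 3. CLDN3 gave 7.92, 8.28 and 7.71, above background but under the level. Not above background were CLDN8, CLDN10, CLDN16 and CLDN18, at means of 3.17 (CLDN18) to 4.71 (CLDN16). CLDN18 is the claudin of the normal stomach, and its probe had the values 3.17 and 3.17 on arrays 1 and 3. In all, 16 of 21 claudins (76.2%) were above background, near the 76.9% of all genes, and 7 (33.3%) over the level, against 44.3%.

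Of 18 mesenchymal genes 14 (77.8%) were above background and 9 (50%) over the level, near the 76.9% and 44.3% of all genes. N-cadherin (CDH2), the cadherin of mesenchymal and neural cells, gave 12.26, 11.66 and 12.29, with both probes above background and 1 of them over the level. Vimentin (VIM), the mesenchymal intermediate filament, gave 10.34, 11.09 and 10.25. Among the factors that repress E-cadherin, SNAI1 gave 10.69, 11.17 and 10.26 and SNAI2 11.99 and 10.34 on arrays 1 and 3, so that SNAI2 differed by more than 1 log2 unit between these arrays. ZEB2 passed with 1 of its 3 probes, ZEB1 was above background on some arrays only, and TWIST1 stayed under the level at 7.19 ± 0.22 (SD, n = 3), from 1 of 2 probes. Fibronectin (FN1) was at 8.32 ± 0.36 (SD, n = 3), under the level, and the matrix gene SPARC and the factor FOXC2 were not above background, both near 3.22.

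Of 39 genes of the mature gastric mucosa with a probe, 22 (56.4%) were above background, 8 (20.5%) were over the olfactory receptor level and 12 (30.8%) were not above background, against 76.9%, 44.3% and 15.3% of all genes. In the surface mucous cells the gastrokines GKN1 and GKN2, secreted proteins of the normal stomach, were not above background: GKN1 gave 3.83, 5.24 and 4.17 and GKN2 3.54, 3.22 and 3.28. The trefoil peptide TFF1 was above background at 8.82, 8.46 and 8.26 without reaching the level, and VSIG1 was above background on some arrays. MUC5AC had no matched probe. Chief-cell genes were split: LIPF, gastric lipase, gave 3.19, 3.22 and 3.19, whereas PGC, pepsinogen C, gave 11.26, 10.54 and 11.38 with both probes above background. The pepsinogen A probe (PGA3) was at 6.31 and 5.71 on arrays 1 and 3; its gene has near-identical copies that share sequence, so its signal is uncertain.

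Parietal and endocrine genes followed the same division. The proton pump subunit ATP4B gave 3.71, 3.22 and 5.10 and was not above background, while ATP4A gave 5.84, 5.39 and 6.04, above background and under the level. Of the hormones, GAST (gastrin) gave 12.77, 12.09 and 12.34 and was over the level, GHRL (ghrelin) gave 6.34, 6.37 and 7.07 and was under it, and SST (somatostatin) and CHGA (chromogranin A) were not above background, at means of 3.84 and 3.53. In the glands MUC6 passed with 1 of 2 probes, at 12.83, 11.66 and 12.28, and TFF2 gave 6.05, 6.30 and 7.71. NEUROG3, an endocrine progenitor factor chosen after its values were seen, gave 14.71, 14.06 and 14.15 from its 1 probe, although its downstream factors INSM1 and NEUROD1 were not above background.

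The intestinal regulators CDX1 and CDX2 were over the level on every array. CDX1 gave 15.48, 15.00 and 14.75 with 2 of 3 probes above background, and CDX2 gave 14.33, 14.24 and 14.52. CDX1 and CDX2 direct intestinal fate and are absent from normal gastric epithelium. The brush-border protein villin (VIL1) gave 11.58, 12.28 and 12.79, and liver-intestine cadherin (CDH17) gave 11.60, 13.02 and 11.86, both of them lowest on array 1. Of 21 genes of the absorptive cell 14 were above background and 9 (42.9%) over the level, close to the share of all genes. Intestinal alkaline phosphatase (ALPI) gave 11.85, 10.64 and 11.29. SI (sucrase-isomaltase), FABP2, DPP4 and MS4A12 were not above background, at means of 3.19 (FABP2) to 4.17 (DPP4). Goblet-cell genes were mixed, with MUC2 at 10.56 and 10.25 on arrays 1 and 3 from 3 of 4 probes, TFF3 at 8.05, 8.04 and 7.83 from 1 of 3 probes, and ATOH1, the factor that starts the secretory lineage, not above background at a mean of 3.44. The Paneth-cell defensins DEFA5 and DEFA6 were not above background. Over the whole list, 14 of 38 genes (36.8%) were over the level, a share under the 44.3% of all genes, and 10 were not above background.

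Among factors of the endoderm, the germ layer of the gut, 31 of 38 (81.6%) were above background and 19 (50%) over the level, near the shares of all genes. GATA6 gave 11.69, 11.99 and 12.26 and GATA4 14.93 and 14.90 on arrays 1 and 3. HNF4A, at 11.23, 11.38 and 11.08, which drives enterocyte and liver genes, was over the level, as were the pioneer factor FOXA1, at 11.43 ± 0.23 (SD, n = 3), and SOX9, a factor of gut progenitors, at 13.90 ± 0.28 (SD, n = 3). SOX2, which marks the foregut, gave 9.76 and 10.95 on arrays 1 and 3, on either side of the level. FOXA2 stayed under it at 9.11 ± 0.64 (SD, n = 3). BARX1, NKX2-1, IRX3 and HHEX were not above background, at means of 3.14 (NKX2-1) to 3.43 (IRX3). NKX2-1 marks lung and thyroid, and BARX1 belongs to the stomach mesenchyme. PDX1, the factor of the pancreas and antrum, was above background on some arrays, at 5.51, 6.68 and 6.42.

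**Figure D2:**
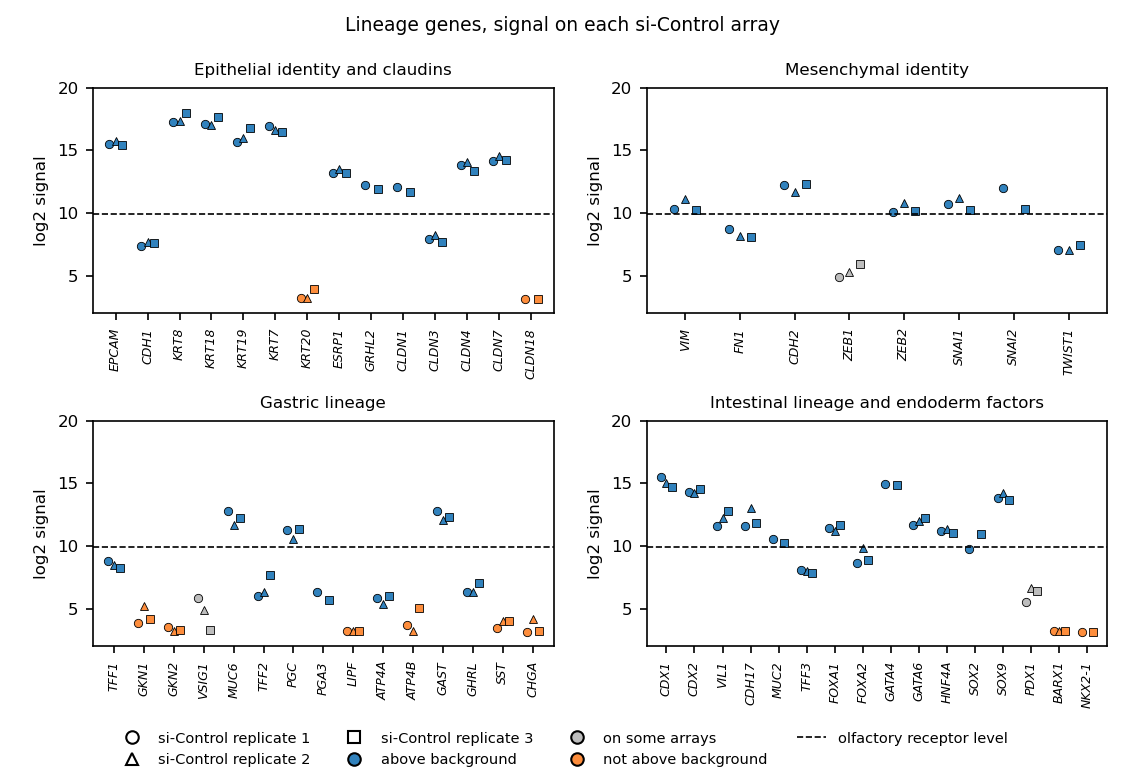
Each symbol is the normalized log2 signal (vertical axis) of a lineage gene on 1 si-Control array; colour gives the detection call, and the dashed line is the olfactory receptor level at 9.92. EPCAM, the keratins KRT8, KRT18, KRT19 and KRT7, CDX1 and CDX2 stood over the line on every array, whereas KRT20, CLDN18, GKN1, GKN2, LIPF and BARX1 lay near the bottom of the scale.

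HOX genes give cells an address along the body axis, with high-numbered members used toward the tail. Of 39, 25 (64.1%) were above background and 8 (20.5%) over the level, against 76.9% and 44.3% of all genes. Cluster B was above background for 9 of 10 genes, and HOXB9 gave 12.62 and 12.09 on arrays 1 and 3. HOXB5 was over the level at 10.88 ± 0.19 (SD, n = 3) and HOXB7 just under it at 9.74 ± 0.05 (SD, n = 3). Cluster D had 0 of 9 genes over the level, and HOXD8 and HOXD13 were not above background. The most posterior members were under the level in each cluster: HOXA13 was not above background at 3.45, HOXB13 gave 6.16 and 5.94 on arrays 1 and 3 and HOXC13 7.48, 8.21 and 8.25. HOXA10 gave 13.50, 12.62 and 12.26 with 1 of 2 probes, and HOXC6 gave 11.91 and 11.81 on arrays 1 and 3.

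Stem-cell markers were mixed. LGR5, a Wnt-dependent receptor of gut stem cells, gave 10.91, 11.92 and 12.40, and LRIG1, an inhibitor of ERBB receptors, 11.38, 11.29 and 10.73. OLFM4 was above background on some arrays, and PROM1 (CD133) was not above background, at 4.82, 4.53 and 4.88. CD44, a surface receptor for hyaluronan, was above background with 1 of 2 probes and under the level, at 9.71, 9.49 and 9.46. Among pluripotency factors POU5F1 gave 13.06, 13.08 and 12.33, with pseudogenes whose transcripts can bind its probes. The other POU5F1 probe was above background but under the level, at a mean of 7.33. NANOG, LIN28A and IGF2BP1 were not above background, at means of 3.20 (LIN28A) to 4.42 (NANOG).

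Receptor tyrosine kinases were above background in 43 of 57 cases and over the level in 23 (40.4%), close to the shares of all genes. In the ERBB family EGFR gave 12.46, 12.43 and 11.78, with 3 of 3 probes above background and 2 of them over the level. ERBB2, a receptor that needs no ligand of its own, gave 13.33, 12.76 and 13.32. ERBB3, the partner with little kinase activity, gave 10.80, 11.51 and 10.27, with 2 of 3 probes over the level. ERBB4 was above background on some arrays, at 3.86, 6.76 and 4.37. So 3 of the 4 ERBB receptors were over the level on all arrays. Of 11 ligands of this family 5 (45.5%) were over the level, near the 44.3% of all genes. TGFA, which binds EGFR, gave 13.75, 12.98 and 13.34, and NRG1, which binds ERBB3, gave 13.00, 11.03 and 13.76, lowest on array 2. The mean for EREG was 10.59 ± 0.29 (SD, n = 3). AREG, amphiregulin, was lowest on array 3, with 13.10, 12.21 and 9.82. EGF itself was above background on some arrays at 5.57, 3.22 and 4.61, HBEGF stayed under the level at 8.10 ± 0.97 (SD, n = 3), and EPGN and NRG2 were not above background, at 3.30 and 3.22.

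Ephrin receptors, which sort cells at boundaries, formed the largest single family on the list, with 14 members. EPHA2, which responds to ephrin A1, gave 14.55 and 14.79 on arrays 1 and 3. EPHB2, a crypt receptor under Wnt control, gave 11.22, 11.42 and 10.71, with 2 of 3 probes over the level. Means of 12.59 ± 0.32 (SD, n = 3) for EPHA1 and 12.25 ± 0.35 (SD, n = 2) for EPHB4 were over the level as well. EPHA5 and EPHB1 were not above background, at means of 3.22 and 3.77. On the ligand side EFNA1 gave 11.54, 11.86 and 11.53 and EFNB1 11.73, 10.99 and 11.68. In all, 6 of 8 ephrins (75%) were over the level, against 44.3% of all genes. Receptors and ligands of this family were thus both over the level in the same RNA samples.

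MET, the receptor of hepatocyte growth factor, gave 13.18, 13.50 and 12.79 and its relative MST1R 11.40 and 11.06 on arrays 1 and 3. The ligand HGF, a product of stroma, was above background on some arrays only, at 5.54, 5.69 and 3.33. IGF1R gave 12.18 and 11.40 on arrays 1 and 3, and the insulin receptor INSR stayed under the level at 9.48, 9.68 and 8.98. AXL, bound by GAS6, gave 7.71, 7.09 and 6.63, although GAS6 itself was at 13.13, 13.35 and 12.56. Among FGF receptors FGFR4, the receptor of FGF19, gave 13.21, 13.00 and 12.33, and FGFR2, amplified in some gastric cancers, gave 10.70, 10.42 and 11.62. FGFR3 was just over the level at 10.34 ± 0.64 (SD, n = 3), whereas FGFR1 was under it at 6.01 ± 0.04 (SD, n = 3), with 1 of 2 probes. FGF19 was not above background, at 4.86 and 4.70 on arrays 1 and 3. Receptors of stroma, vessels and blood cells were mostly under the level: PDGFRA gave 8.33, 9.28 and 9.13, CSF1R 7.52, 7.32 and 7.66, KIT and KDR were above background on some arrays, and FLT3, DDR2, ALK and TEK were not above background, at means of 3.29 (FLT3) to 4.98 (DDR2). PDGFRB was the exception at 13.43 and 13.16 on arrays 1 and 3, from 1 of 2 probes. VEGFA, which signals to vessels, gave 13.91, 13.82 and 12.35, PDGFA gave 13.13, 12.94 and 12.55, and PDGFC was not above background at 4.19. The collagen receptor DDR1 gave 12.69, 12.63 and 12.56.

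**Figure D3:**
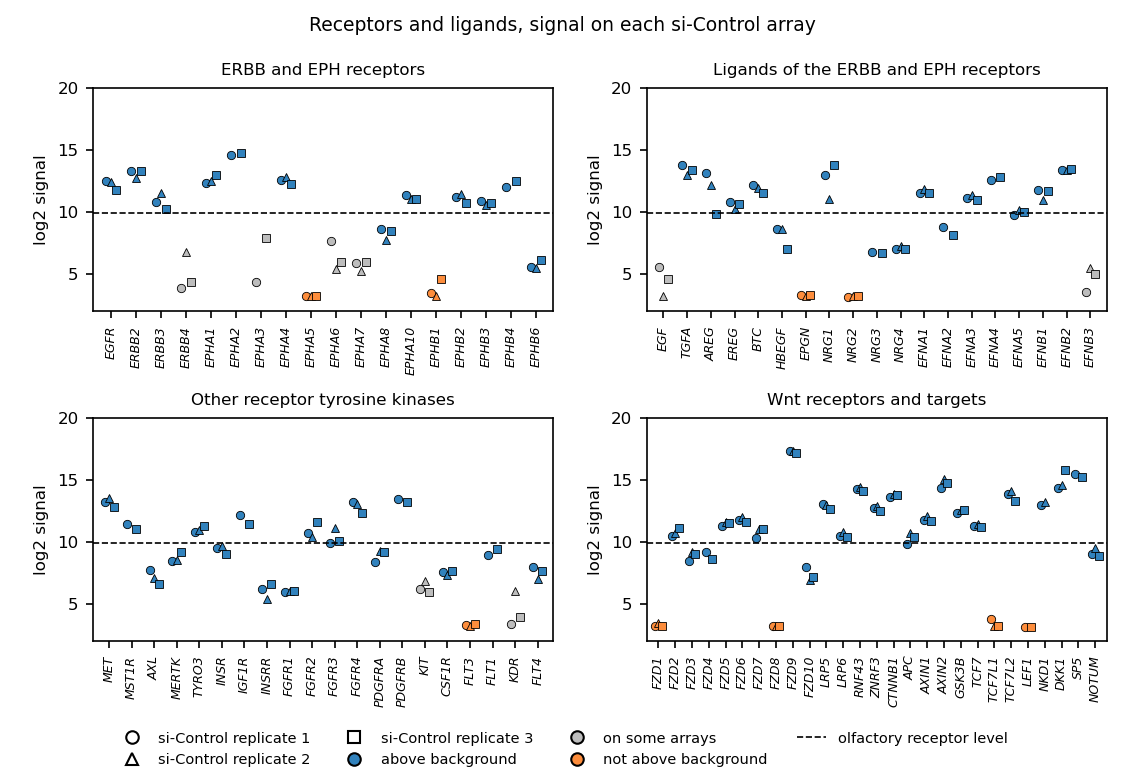
Each symbol is the normalized log2 signal (vertical axis) of a receptor, ligand or pathway gene on 1 si-Control array; colour gives the detection call, and the dashed line is the olfactory receptor level at 9.92. EGFR, ERBB2, ERBB3, MET, EPHA2, AXIN2 and RNF43 stood over the line on every array shown, and EPHA5, FLT3, FZD1, FZD8 and LEF1 were not above background.

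In the Wnt pathway, ligands bind a Frizzled receptor with LRP5 or LRP6 and stabilise beta-catenin, which then acts with TCF factors. Feedback targets of the pathway were over the level. AXIN2, a scaffold of the destruction complex, gave 14.35, 15.04 and 14.73. The receptor-removing ligase RNF43 gave 14.24, 14.41 and 14.06, and its relative ZNRF3 had a mean of 12.68 ± 0.19 (SD, n = 3). DKK1, a secreted inhibitor, gave 14.30, 14.59 and 15.76, and SP5, a target named after its values were seen, 15.42 and 15.24 on arrays 1 and 3. Of the Frizzled receptors FZD5 gave 11.27, 11.63 and 11.53 and FZD7 10.32, 11.03 and 11.03, while FZD1 and FZD8 were not above background, at 3.27 and 3.22. LRP5 gave 13.07, 12.95 and 12.67 and LRP6 10.45, 10.78 and 10.35. CTNNB1, which encodes beta-catenin, gave 13.56, 13.86 and 13.74 and its antagonist APC 9.85, 10.68 and 10.40. The nuclear partners were not alike: TCF7L2 gave 13.87, 14.11 and 13.24 with 3 of 3 probes, and LEF1, at 3.14 and 3.17 on arrays 1 and 3, and TCF7L1, at a mean of 3.39, were not above background. Of 19 ligand genes 2 were over the level, a smaller share than the 44.3% of all genes. WNT4, WNT5A, WNT11 and WNT16 were not above background. WNT3 gave 8.23 and 8.46 on arrays 1 and 3. WNT3A, chosen after its values were seen, gave 14.22, 13.89 and 14.00 with both probes.

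Notch receptors signal to neighbouring cells through RBPJ. NOTCH1 gave 17.19, 16.93 and 16.95, while its other probe was above background at a mean of 9.20, under the level. Means for NOTCH2 and NOTCH3 were 12.75 ± 0.37 (SD, n = 3) and 11.05 ± 0.31 (SD, n = 3). The ligand JAG1 gave 13.34 and 13.96 on arrays 1 and 3. Receptors and a ligand were thus over the level together. The target HES1 gave 14.32, 15.56 and 14.01, but HEY1, HEY2 and HEYL were not above background, at means of 3.15 (HEY1) to 4.06 (HEY2). In the Hedgehog pathway the receptor PTCH1 gave 10.18, 9.83 and 10.18, near the level, and the ligand SHH, which the gastric epithelium makes, 8.38 and 8.09 on arrays 1 and 3. SMO, the transducer, stayed under the level at 7.86 and 7.64 on arrays 1 and 3, and GLI1, the usual read-out of the pathway, was not above background at 3.68, 3.52 and 3.81; nor were GLI3 and the Notch ligand DLL3.

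TGF-beta signals through a pair of receptors to SMAD2, SMAD3 and SMAD4. TGFBR2 gave 14.28, 14.65 and 13.29, and TGFBR1 was not above background at 3.13 and 3.13 on arrays 1 and 3, from 1 probe whose spot on array 2 lay in the dim region. The ligand TGFB1 gave 12.78, 13.16 and 12.67, TGFB2 and INHBB were not above background at 4.82 and 4.68, and INHBA gave 10.53, 9.96 and 10.46. GDF15, a stress-induced member of the family, gave 17.59, 17.51 and 17.55. BMP4 gave 12.37, 12.80 and 12.02. Its receptor BMPR1A gave 9.87, 10.21 and 10.46, with 4 of 4 probes above background and 1 of them over the level. The SMADs that carry the TGF-beta signal did not pass the level: SMAD3 had a mean of 9.72 ± 0.28 (SD, n = 3), SMAD4 of 8.52 ± 0.42 (SD, n = 3), and SMAD2 was above background on some arrays, at 4.83, 5.54 and 5.28.

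Nuclear receptors are transcription factors switched by small ligands. The vitamin D receptor VDR gave 12.39, 12.19 and 12.36. The retinoid receptors RARA and RXRA had means of 11.34 ± 0.22 (SD, n = 3) and 10.89 ± 0.08 (SD, n = 3). PPARG, which controls lipid genes, gave 10.70, 11.26 and 10.90. The glucocorticoid receptor NR3C1 gave 11.16, 11.45 and 11.01 with 2 of 3 probes. ESR1 gave 11.53 and 11.02 on arrays 1 and 3, but from 1 of its 3 probes. PGR, ESR2 and NR3C2 were not above background, at means of 3.78 (ESR2) to 5.04 (PGR). Of 39 receptors 28 (71.8%) were above background and 17 (43.6%) over the level, near the 76.9% and 44.3% of all genes. Not above background on any array were 7.

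Of 6 interferon receptor genes 6 were above background and 3 (50%) over the level, against 76.9% and 44.3% of all genes. IFNGR1 gave 11.81, 11.91 and 11.95 and IFNGR2 13.13, 13.19 and 12.73, whereas IFNAR1 stayed under the level at 7.37 ± 0.65 (SD, n = 3). IL6ST, the shared signalling chain of the interleukin 6 family, gave 10.93, 10.83 and 10.74, with 6 of 7 probes above background and 3 over the level. IL4R gave 10.77 and 10.64 on arrays 1 and 3, with 1 of 3 probes over the level. IL7R, a lymphocyte receptor, was not above background at 3.49, 3.22 and 3.82. The death receptors were over the level. FAS gave 11.19, 11.39 and 11.94, with 3 of 3 probes above background and 1 of them over the level. The TRAIL receptors TNFRSF10A and TNFRSF10B had means of 11.38 ± 0.17 (SD, n = 3) and 12.85 ± 0.11 (SD, n = 3). The TNF receptor TNFRSF1A was at 12.12 ± 0.25 (SD, n = 3). Chemokine receptors, which guide migrating white blood cells, were under the level throughout, with 0 of 14 over the level. CXCR4 gave 6.90, 6.74 and 6.72. CXCR2 had a mean of 7.78 ± 0.17 (SD, n = 3).

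Sensors of foreign RNA and DNA were read because the cells had been given siRNA. IFIH1, a sensor of long double-stranded RNA, gave 12.78, 13.12 and 12.00. RIGI, which reads short RNA, and the shared adaptor MAVS had means of 11.03 ± 0.18 (SD, n = 3) and 11.41 ± 0.09 (SD, n = 3). Over the level were 1 of 2 RIGI probes and 2 of 4 MAVS probes. The DNA sensor CGAS gave 12.14, 12.65 and 12.29. The partner of CGAS, STING1, stayed under the level at 7.64, 8.10 and 7.13. TLR3, which reads double-stranded RNA in endosomes, was at 6.17, 5.95 and 6.20, and TLR4, the lipopolysaccharide receptor, at 11.34, 12.12 and 12.04. TLR1, TLR2 and TLR10 were not above background, at means of 3.19 (TLR2) to 3.80 (TLR1). IRF7, an interferon-induced factor, gave 12.57 and 11.86 on arrays 1 and 3. Whether transfection moved any of these could not be told apart from the untreated state, since every cell sample had been transfected.

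Antigen presentation was split between classes. B2M, the shared light chain of class I, gave 14.04, 14.40 and 14.19. The paralogous HLA probes can share transcripts and are uncertain. HLA-B, at 9.65 ± 0.55 (SD, n = 3), HLA-C, at 8.45 ± 0.67 (SD, n = 3), and the peptide transporter TAP1, at 9.80 ± 0.16 (SD, n = 3), were under the level. In class II, HLA-DRA was not above background at 3.14 and 3.19 on arrays 1 and 3, nor was HLA-DMB, and CD74, the invariant chain, stayed under the level at 7.95, 7.73 and 8.81. CIITA, the class II activator, gave 10.07 and 9.95 on arrays 1 and 3 with 1 of 2 probes. CD47, the signal against phagocytosis, gave 13.08, 13.73 and 13.99, and CD274 (PD-L1) 8.15, 7.58 and 6.97, under the level with both probes above background. CD80 was not above background at 3.37, and IDO1, which breaks down tryptophan, gave 10.42, 9.76 and 10.05.

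C1GALT1, the gene silenced in the other group of the series, belongs to the enzymes that build glycans. Chains of mucin type start when a GalNAc transferase adds GalNAc to serine or threonine. Of 20 such enzymes 13 (65%) were above background, 8 (40%) were over the level and 5 (25%) were not above background. The shares of all genes were 76.9%, 44.3% and 15.3%. The broadly expressed GALNT1 gave 11.77, 12.04 and 12.07, and GALNT2 had a mean of 10.60 ± 0.21 (SD, n = 3). GALNT6 and GALNT12 were over the level at 11.66 ± 0.27 (SD, n = 3) and 10.70 ± 0.48 (SD, n = 3). GALNT3 gave 10.59, 9.16 and 10.48 and so fell on either side of the level, being lowest on array 2. GALNT8, GALNT11, GALNT13, GALNT14 and GALNTL5 were not above background, at means of 3.20 (GALNT14) to 3.98 (GALNT8).

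Both genes of the core 1 step were over the level. C1GALT1, the target of the series, gave 12.17, 13.00 and 12.57 in the control cells, a mean of 12.58 ± 0.41 (SD, n = 3), and its chaperone C1GALT1C1 gave 10.92, 11.33 and 10.88. Core 2 branches can be made by GCNT3, the mucin-type enzyme, which gave 13.44 and 12.95 on arrays 1 and 3, and by GCNT1, which was not above background at 5.05 and 4.75 on arrays 1 and 3; array 2 was missing for both. B3GNT6, the core 3 synthase of normal gut, gave 6.61, 6.04 and 6.17, above background and under the level. A4GNT, which caps gastric gland mucin, was at 7.13 ± 0.90 (SD, n = 3). The sulfotransferases CHST1 and CHST2 were not above background, at 3.27 ± 0.07 (SD, n = 3) and 3.14 ± 0.03 (SD, n = 2), and CHST4 was at 8.20 ± 0.23 (SD, n = 3) from 1 of 2 probes.

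Of 20 sialyltransferases 15 (75%) were above background and 5 (25%) over the level, against 76.9% and 44.3% of all genes. Those over the level were ST8SIA1, ST8SIA3, ST6GALNAC3, ST6GALNAC4 and ST3GAL2, at means of 10.09 (ST8SIA3) to 12.96 (ST8SIA1); ST8SIA1, above background with 1 of 2 probes, makes the ganglioside GD3, and ST3GAL2 adds sialic acid to galactose. ST6GALNAC1, which makes sialyl-Tn and so competes with core 1 synthesis, gave 9.26, 9.41 and 9.07. ST3GAL1, which caps core 1, gave 8.06, 8.19 and 7.16. ST3GAL4 and the N-glycan enzyme ST6GAL1 had means of 9.24 ± 0.02 (SD, n = 2) and 9.77 ± 0.36 (SD, n = 3). ST3GAL6 and ST8SIA2 were not above background, at means of 3.39 and 3.17.

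Fucosyltransferases make the H and Lewis antigens. FUT1, the H enzyme of red cells and some epithelia, gave 13.80, 13.62 and 12.54, and FUT2, the secretor enzyme, 8.36, 9.02 and 8.34. FUT4 gave 10.62 and 10.80 on arrays 1 and 3 and FUT8, which adds core fucose to N-glycans, 10.79 and 10.78 on arrays 1 and 3. FUT3, the Lewis enzyme, ranged widely, at 8.57, 5.92 and 6.76. FUT6, named after its values were seen, gave 17.29, 17.23 and 16.99. Its other probe was above background at a mean of 7.66, under the level. FUT3, FUT5 and FUT6 are close paralogs, and their signals are uncertain. FUT9 and B3GALT2 were not above background. The blood-group transferase ABO gave 15.50, 15.57 and 15.25 with 3 of 3 probes above background, and B3GALT5, which makes type 1 chains, was above background on some arrays at 3.33, 3.22 and 7.14.

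N-glycans are built by a separate set of enzymes. Of 40, 37 were above background, 33 (82.5%) were over the level, against 44.3% of all genes, and none of the 40 failed the background call on all arrays. STT3A, the transferase that moves the chain to protein, gave 12.47, 12.58 and 13.03, and DPAGT1, the enzyme of the first step, 11.48, 12.00 and 12.18. MGAT1 gave 12.56, 13.08 and 13.23 and MGAT5, which builds the beta-1,6 branch found in tumours, 12.96, 13.71 and 12.67. MGAT3, which adds the bisecting residue that blocks branching, was above background on some arrays, at 3.33, 5.53 and 4.08.

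Mucins carry many of these chains. MUC1, the common membrane mucin of glandular epithelia, gave 10.92, 11.95 and 10.44 with both probes above background. MUC4, which binds ERBB2, gave 15.40, 14.91 and 14.93, with 4 of 4 probes above background and 3 of them over the level. MUC13 was just over the level at 10.35 ± 0.23 (SD, n = 3). MUC16 was above background on some arrays. MUC5B gave 11.24, 9.66 and 10.47, lowest on array 2. EMCN and MCAM, vessel proteins once numbered among the mucins, were not above background, at 3.28 and 3.68. Galectins bind galactose on such chains: LGALS1 and LGALS3 were over the level at 15.11 ± 0.16 (SD, n = 3) and 14.73 ± 0.10 (SD, n = 3). LGALS4, an intestinal galectin, gave 10.63, 11.56 and 8.57, lowest on array 3. LGALS8 stayed under the level at 9.27 ± 0.59 (SD, n = 3), and the placental galectins LGALS13 and LGALS16 were not above background, at 3.20 and 4.38.

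**Figure D4:**
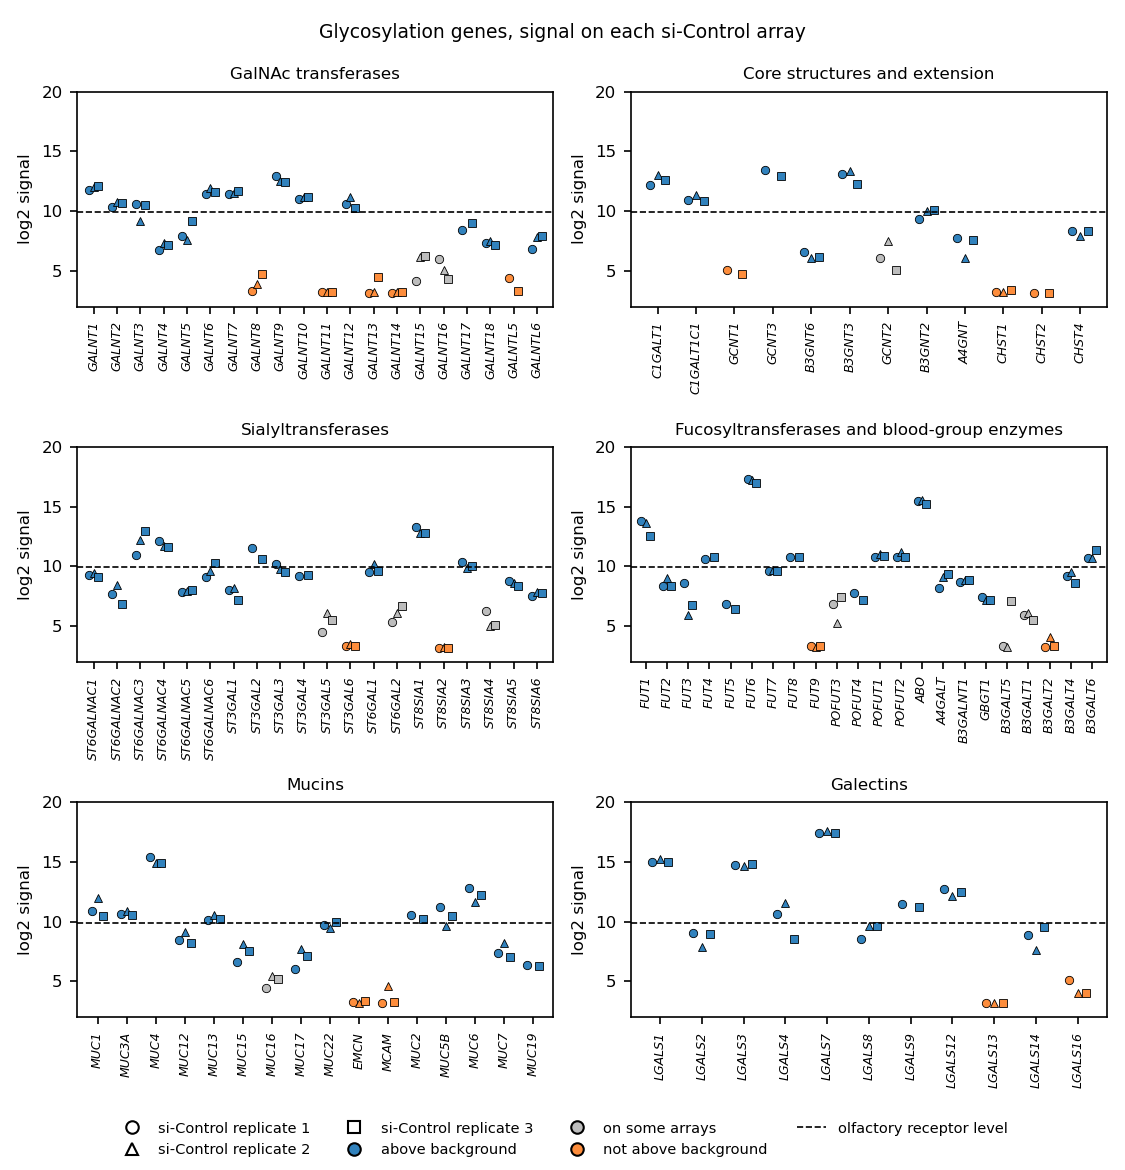
Each symbol is the normalized log2 signal (vertical axis) of a glycosylation gene on 1 si-Control array; colour gives the detection call, and the dashed line is the olfactory receptor level at 9.92. C1GALT1, C1GALT1C1, GCNT3, FUT1, ABO and MUC4 stood over the line on every array shown, most of the sialyltransferases shown lay at or under it, and GALNT11, GALNT14, GCNT1, ST3GAL6 and FUT9 were not above background.

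Of 49 downstream signalling genes 48 were above background and 41 (83.7%) over the level, against 76.9% and 44.3% of all genes. Among targets of the MAPK cascade, the phosphatase DUSP6 was over the level at 16.48, 16.42 and 14.48. The inhibitor SPRY2 and the factors ETV4 and FOSL1 were over it too, with means of 12.47, 12.49 and 12.12. ETV5 was above background but under the level, at 9.08, 9.28 and 8.76. PIK3CA, a catalytic subunit of PI3K, gave 10.46, 10.97 and 10.70. YAP1 gave 11.94, 11.89 and 11.69, and its relative WWTR1 had a mean of 10.86 ± 0.65 (SD, n = 3). Their secreted targets CCN1 and CCN2 were at 12.80 ± 0.38 (SD, n = 3) and 15.05 ± 0.43 (SD, n = 3). PIK3CG, a kinase of white blood cells, was the member above background on only some arrays.

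Tumour suppressors and cell-cycle genes were over the level in 20 of 26 cases (76.9%), against 44.3% of all genes. The cell-cycle inhibitor CDKN1A (p21) gave 13.50, 13.86 and 14.41. The ubiquitin ligase MDM2 had a mean of 12.69 ± 0.44 (SD, n = 2), with 1 of 3 probes over the level. CDKN2A, which encodes p16, stayed under the level at 9.87, 9.53 and 9.69. CCND1 gave 12.87, 13.28 and 14.23, and CCND2 was not above background at 3.14 and 3.19 on arrays 1 and 3. RUNX3, a factor often silenced in gastric cancer, was at 9.12, 8.68 and 9.29 with 1 of 2 probes above background and under the level, and the catenin CTNNA2 was not above background at 3.38. A signal says nothing of mutations in these genes.

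Integrins join the cell to matrix as pairs of an alpha and a beta chain. ITGB1 gave 14.26, 14.38 and 14.30 and ITGB4, the hemidesmosome chain, 13.13, 12.54 and 11.76. Their partners ITGA2, ITGA3, ITGA5 and ITGA6 gave means of 11.80, 13.66, 12.53 and 12.82, all over the level. The leukocyte beta chain ITGB2 was not above background at 3.23, 3.22 and 3.24, nor were its partner ITGAM, the platelet chain ITGB3, and ITGA8. The platelet alpha chain ITGA2B, however, was over the level at 10.68, 10.29 and 10.32. The leukocyte alpha chain ITGAL was above background at 10.08, 9.55 and 9.92, with a mean of 9.85, under the level.

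In 7 lists of other cell types the share of genes over the level ran from 14.3% for red blood cells to 35.7% for squamous epithelium, against 44.3% of all genes. Of 23 white blood cell genes 14 (60.9%) were above background, against 76.9% of all genes, and 5 over the level. Those over the level were CD4, PTPRC, CD79A, GNLY and TYROBP. PTPRC (CD45) gave 14.34, 13.92 and 13.60, with 2 of its 5 probes above background, and CD4 gave 15.95 and 15.19 on arrays 1 and 3. The T-cell chain CD3E gave 7.38, 6.30 and 7.17, and the monocyte marker CD14 had a mean of 6.85 ± 0.63 (SD, n = 3), both under the level. CD3D and MS4A1 were above background on some arrays. SPI1, CD163, CD79B, ITGAM and LILRB1 were not above background. Red blood cell genes were all above background, 1 of 7 over the level, with HBB at 6.50, 7.18 and 7.59. AGS is an epithelial line, and what gives signal in these blood cell genes was not tested.

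Fibroblast genes were above background for 5 of 10 and over the level for 3, which were COL1A1 and, with 1 of 2 probes each, COL5A1 and PDGFRB. COL1A1 gave 10.44 and 10.02 on arrays 1 and 3, while its partner chain COL1A2, and DCN, LUM and POSTN, were not above background, at means of 3.16 (LUM) to 5.49 (DCN). Endothelial genes were above background for 4 of 10 (40%), against 76.9% of all genes. The adhesion molecule ESAM, at 11.33 ± 0.19 (SD, n = 3), and CLDN5, at 9.93 ± 0.11 (SD, n = 3), were over the level, CDH5, at 7.26 ± 0.21 (SD, n = 3), and VWF, at 9.84 ± 0.37 (SD, n = 2), were under it, and TEK, EMCN and ROBO4 were not above background. Of 15 liver and lung genes 7 were above background and 3 over the level. ALB, APOB, TF and SFTPA1 were not above background, at means of 3.72 (ALB) to 4.72 (APOB), while the airway protein SCGB1A1 gave 11.57, 11.65 and 11.35 and the surfactant genes SFTPC and SFTPD had means of 11.29 ± 0.36 (SD, n = 2) and 11.03 ± 0.19 (SD, n = 3). Muscle and neuron genes were above background for 10 of 14 and over the level for 4, which were TUBB3, SNAP25 and, with 1 of 2 probes each, TNNT3 and SYT1. CKM and MYL1 were not above background, and the synaptic protein SNAP25 gave 10.12, 9.43 and 10.64. Squamous genes were above background for 7 of 14 and over the level for 5. The squamous keratin KRT5 was not above background at 3.18, 3.22 and 3.23, nor were KRT1, KRT4, DSC1 and DSG3. KRT14 gave 12.97, 11.76 and 11.44, the cornified envelope genes SPRR1A and IVL had means of 17.34 ± 0.19 (SD, n = 2) and 15.14 ± 0.20 (SD, n = 3), and KRT10 and KRT13 had means of 11.08 ± 0.07 (SD, n = 3) and 10.01 ± 0.97 (SD, n = 3). For KRT14 and SPRR1A the other probe was above background but under the level, at means of 8.44 and 9.47. Cancer-testis antigens, germ-cell genes that many tumours switch on, had 1 of 22 over the level, the smallest share of the 36 lists. That member, MAGEC1, gave 14.38, 14.35 and 13.83, with 1 of 2 probes above background. MAGEA1 was at 3.19, 3.22 and 5.34 and not above background, MAGEA4 was above background on some arrays, and PRAME was above background at 7.61, 7.97 and 7.81. All 29 housekeeping genes were over the level, from TBP at 11.11 ± 0.26 (SD, n = 3) to ACTB at 18.33 ± 0.20 (SD, n = 3).

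Replicate arrays differed little for most genes. Among 14220 genes whose shown probe was above background on 3 arrays and lay outside the dim region, the SD over arrays had a median of 0.32 log2 units, and it was under 1 in 98.2%. Probes printed 10 times had a median SD of 0.09, 0.12 and 0.07 within arrays 1, 2 and 3 and of 0.26 between arrays, so that most of the spread was between arrays and not between spots. Of the 10 genes with the largest SD, 7 had spots within 16 lines or columns of the dim region and were lowest on array 2: NUP54, SECISBP2, TRAP1, IPPK, DEDD, CRYBB2 and FSAF1. NUP54, a nuclear pore protein, gave 11.62, 7.14 and 11.85. The margin of the region was still dimmer than the rest of that array, at a median deviation of 0.06 against 0.44 elsewhere. Away from the region and its margin 139 genes had an SD of 1 or more, against 257 with the margin included.

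The other three of the 10, LEMD1, RORA-AS1 and LINC00659, lay away from the region and were lowest on array 3. LEMD1, a nuclear membrane protein family member, gave 10.59, 10.61 and 6.24. The long noncoding RNA RORA-AS1 gave 12.67, 11.80 and 8.51. LINC00659, another, gave 13.87, 13.58 and 10.13. When genes near the region were set aside, 35 of the 40 genes with the largest SD were lowest on array 3, 5 on array 1 and 0 on array 2. Those named here were chosen after their values were seen. They included TXNIP, which restrains glucose uptake and is itself switched on by glucose, at 15.71, 14.35 and 11.73, and its relative ARRDC4 at 10.78, 9.31 and 7.04. NUPR1, a stress-response factor, gave 12.01, 10.61 and 8.40 and REG1A, a secreted lectin of gut epithelium, 11.83, 13.58 and 9.97. The carcinoembryonic antigen CEACAM5 gave 14.13, 14.11 and 11.28. The immediate-early factor FOS gave 14.78, 15.47 and 12.40, and the calcium-binding protein S100P 15.41, 14.93 and 12.41. AREG and LGALS4 are given above. EPCAM, KRT8, CDX2 and ERBB2 differed by less than 1 log2 unit over the same arrays. With 1 array per RNA sample, a difference of the culture and one of the array cannot be told apart.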

How the data were processed

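Total RNA from AGS cells was labelled with Alexa555 and hybridised to 1-colour Agilent SurePrint G3 Human v3 arrays by the authors, who read them with Agilent Feature Extraction 10.5.1.1, per the submitters' processing notes. The deposited scanner files hold spot intensities; the processed signal is corrected for background, and the deposited series table gives the intensity of each spot after subtraction of its background, with no normalization. Only the 3 si-Control arrays were used.

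Control spots, spots marked as outliers (100 to 424 per array) and the dim region of replicate 2 were left out. The log2 processed intensity was quantile normalized over the 3 arrays with missing spots left missing, and spots of a probe were averaged. For probes printed 10 times, at least 50% of the usable spots had to be well above background. Probes were named through the RefSeq transcript accession in the deposited files; 27097 probes led to no symbol. Of 1011 listed symbols in 36 lists, 991 had a probe, and the 20 others were not analysed here. Precision is limited by the number of arrays.

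The members and the gene lists were chosen with earlier results of these data known. Genes named are the defining members of each list, all members of its smaller class (above or not above background) where it had at most 6, and the 10 genes with the largest SD over arrays; others were chosen after their values were seen, among them the cell-type and pathway members given beside these. Motifs and CpG were counted in the first RefSeq promoter listed for each gene (GRCh38.p14); the arrays name build hg19, and no coordinates of the arrays are given. Alternatives changed the detection rule, the normalization, the choice of probe, the region and the arrays used. The scripts, in Python 3.11.15 with pandas 2.3.3 and numpy 2.4.6, were tested on simulated arrays. Some listed genes count in the totals of their lists but are not reported here by name.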

Additional observations from a re-analysis of the deposited data

How the results depend on the processing

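Requiring a mean over the olfactory receptor level cut the genes above background from 17255 to 9937 and left 12501 genes without the call, which hold all the others, against 3435 not above background on any array. The count of olfactory receptors under this rule follows from the definition of the level. The number of genes above background in a list or family then came to 1 each for red blood cells and for cancer-testis antigens, 2 for endothelial cells, 3 each for fibroblasts and for liver and lung, 4 each for O-glycan cores and extension and for muscle and neuron, 5 each for sialyltransferases and for white blood cells, 7 each for claudins and for mucins, 8 each for gastric lineage, HOX genes, O-glycan initiation and for fucosyltransferases and blood-group enzymes, 9 each for mesenchymal identity and for Notch and Hedgehog pathways, 11 for integrins, 12 for TGF-beta and BMP pathways, 14 for intestinal lineage, 17 for nuclear receptors, 18 each for receptor kinase ligands and for antigen presentation and immune ligands, 19 each for olfactory receptors and for endoderm transcription factors, 21 each for Wnt pathway and for cytokine receptors, 22 for keratin-associated proteins, 23 for receptor tyrosine kinases. With only genes of 1 probe, fewer genes could be counted by construction: 11334 genes were above background, and the lists that moved by over 1.5 times came to 3 for fibroblasts, 4 each for mucins and for cancer-testis antigens, 5 for muscle and neuron, 9 for mesenchymal identity, 11 for Notch and Hedgehog pathways, 13 for antigen presentation and immune ligands, 14 each for nuclear receptors and for tumour suppressors and cell-cycle control, 16 for housekeeping genes, 22 for receptor kinase ligands, 24 each for epithelial identity and for cytokine receptors, 26 for receptor tyrosine kinases. When every probe of a gene had to be above background, the counts that moved as far were 3 for fibroblasts, 6 each for mucins and for muscle and neuron. When 1 array was enough, those were 7 for endothelial cells, 11 for liver and lung, 15 for cancer-testis antigens.

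The other detection settings kept the totals of genes above and not above background, and the number above background in each list, within 1.5 times of their values; counts over the level, counts within roles and counts of genes by SD were not recomputed. The genes above background numbered as follows: at least 2 arrays gave 17998, the 99th percentile of negative controls 16200, the central region kept 16236, outlier spots kept 17257, leaving out an array in turn 17398 to 17802, and a region widened by 16 lines and columns, added after the data were seen, 17324. The median SD between arrays was 0.32 and ranged from 0.25 to 0.44. Over 327 defining genes, mean signals moved by more than their SD for 9 genes without normalization, 8 with the 75th percentile, 33 with the series table, 78 with the median over probes, 50 with the region kept, 6 with the wider region, and 18 to 110 when an array was left out. Taking the median over probes moved a gene by up to 7.72 log2 units, so a gene's level rests on the probe shown. No paired analysis was possible because a single group was described and no result comes from a test. The depth of signal over background is the limit: a transcript under the scanner's background call may still be present.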
